A study of Homo sapiens with 18 samples.

Results

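The BCL2 family decides whether the mitochondria of a cell open to trigger apoptosis, and 10 of its genes were followed across tumour xenografts treated with the compound DS55980254. They were 6 BH3-only death genes (PMAIP1, BBC3, BCL2L11, BIK, BID and BAD), the effectors BAX and BAK1, and the protectors MCL1 and BCL2L1. The genes were picked by name, with earlier results of these data known, and located through their Entrez gene IDs. All 10 were found among the 25343 genes measured. All tumours grew from HCT116 cells, a widely used human colon carcinoma line, with a knockout of PTDSS2, which encodes one of the phosphatidylserine synthases. The knockout was therefore present in the control group too. Mice received vehicle, or DS55980254 at 10 or 30 mg/kg, by mouth in 0.5% methylcellulose, and tumour RNA was sequenced from tissue taken 24 hours later, with 6 libraries in each of the 3 groups. The labels give neither the host strain, nor whether the knockout is 1 clone, nor which mouse gave which library. The p-values therefore measure the spread between libraries, which may be partly technical.

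In this family, proteins are set against each other by direct binding. MCL1 and BCL2L1 (BCL-XL) hold the effectors BAX and BAK1 in check at the outer mitochondrial membrane. BH3-only proteins are made or activated under stress and occupy the groove of the protectors, some of them also engaging the effectors directly. When BAX or BAK1 assembles into pores, cytochrome c leaves the mitochondria and caspases are activated. Several members are controlled mainly after transcription, through protein stability, phosphorylation or cleavage, which RNA levels do not show. Epithelial tumours such as colon carcinoma commonly lean on BCL-XL and MCL1 for survival.

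The total count was between 3435435 and 8538793 in 17 libraries and was 433989 in 10 mg/kg replicate 2. The mean correlation of that library with the others was 0.728, against 0.943 to 0.955 for the other 17. Counts of the members in it ran from 1 to 82, while in the other 17 libraries they ran from 38 to 1411. Of 8 markers of colon carcinoma cells, 6 passed the filter on low counts and CEACAM5 and VIL1 did not, and the summed level of the 8 was 4034 to 7354 CPM (counts scaled to library size) over all libraries. Summed fibroblast markers reached 318.7 CPM in 10 mg/kg replicate 2 and at most 107.8 CPM in any other library, and endothelial, leukocyte, erythroid and olfactory receptor genes were also highest there. Their part in the results was not tested, and values without that library are given where it mattered. PTDSS2 transcript was counted at 4.97 to 13.9 CPM across the libraries, with no group apart, which does not check the knockout at the protein level.

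PMAIP1 encodes NOXA, a BH3-only protein that binds MCL1 in preference to other protectors. It was the member with the most distinct level. In vehicle tumours PMAIP1 stood at 81.1 CPM in the lowest library, 85.1 at the median and 99.7 in the highest (mean 86.8 ± 6.78 SD, n = 6). The lowest, median and highest values at 10 mg/kg were 104.8, 118.7 and 145.3 CPM (mean 120.5 ± 16.3, n = 6). Those at 30 mg/kg were 112.2, 137.0 and 165.2 CPM (mean 137.9 ± 26.5, n = 6). On this scale every treated library lay above every vehicle library at both doses, whereas the dose groups overlapped each other. In bulk tissue, more cells of a kind and more RNA per cell cannot be told apart. The 30 mg/kg group held 3 libraries at 158.7 to 165.2 CPM and 3 at 112.2 to 115.3 CPM.

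The fitted level of PMAIP1 was 1.59-fold higher at 30 mg/kg than in vehicle (95% interval 1.34 to 1.88; adjusted p = 0.00307, edgeR quasi-likelihood test with Benjamini-Hochberg adjustment over 14074 genes), so it rose at that dose. At 10 mg/kg the level was 1.40-fold that of vehicle (1.18 to 1.66), which did not pass the 0.05 threshold (adjusted p = 0.0832 in edgeR). Without 10 mg/kg replicate 2 the adjusted p at 10 mg/kg was 0.0230, and without 30 mg/kg replicate 5, which is outside that comparison but shares the estimate of spread, it was 0.0490. DESeq2 gave an adjusted p of 0.0104. In all, 4 of 30 alternatives called PMAIP1 at 10 mg/kg, and 2 of the 18 fits that left out 1 library did. The adjusted p was 0.239 in edgeR without vehicle replicate 5, 0.0842 with limma-voom and 0.571 with limma on log2(TPM + 1). At 30 mg/kg the call held in all 18 fits that left out 1 library, and was lost when limma was run on log2(TPM + 1), with an adjusted p of 0.265. Between the doses the ratio was 1.14 (0.957 to 1.35; adjusted p = 0.969, edgeR), an interval that includes both no difference and a further increase.

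**Figure D1:**
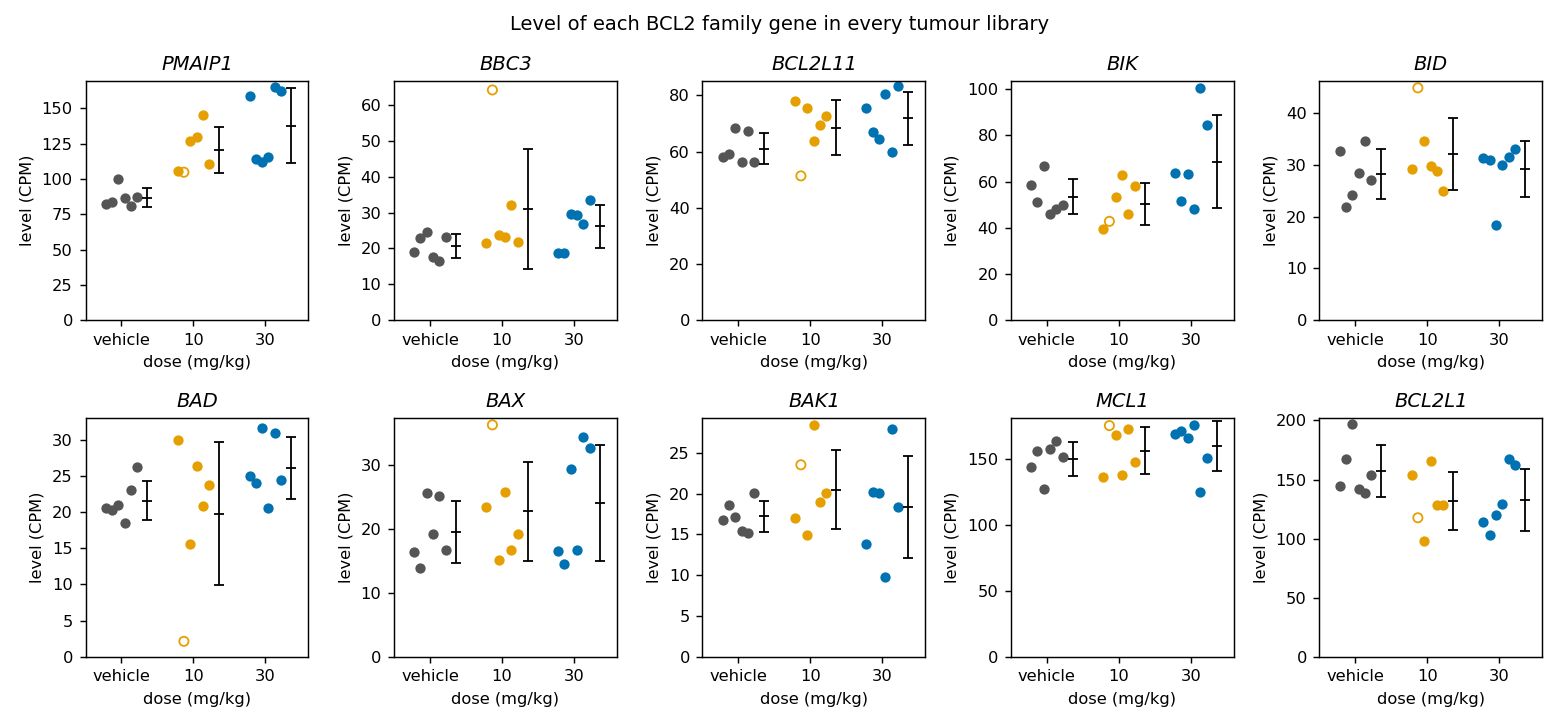
Level of each member in CPM (vertical axis) in each library of the 3 groups (horizontal axis), with bars at the mean ± SD of 6 libraries and an open circle for 10 mg/kg replicate 2. PMAIP1 in treated libraries sits at 104.8 CPM or more, above the vehicle maximum of 99.7, while the groups of the other members overlap.

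Among the 250 bases before the start of PMAIP1 (GRCh38.p14, chr18:59899746-59899995, forward strand, sequence from RefSeq), shown because it was the member that passed, 1 CRE core lay 55 bases before the start. The CRE core is TGACG, which ATF and CREB proteins are known to bind, and it appears on the other strand as CGTCA, in capitals.
PMAIP1 promoter: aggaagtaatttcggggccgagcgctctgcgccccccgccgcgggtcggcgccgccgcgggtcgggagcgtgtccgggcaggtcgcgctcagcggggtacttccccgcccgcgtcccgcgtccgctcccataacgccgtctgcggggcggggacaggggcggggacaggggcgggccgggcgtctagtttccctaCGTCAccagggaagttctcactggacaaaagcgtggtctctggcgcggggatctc
Motifs were sought on both strands in 8 of the members, those in the promoter table, and BIK and MCL1 are not among them. The table lists some genes with several starts, so these 8 had 14 windows, 5 of them for BID, which partly overlap. TGACG was present in 5 of the 14 windows (PMAIP1, both of BAD, BAX and 1 of the 2 of BCL2L1) and in 21.2% of all 35116 promoter windows of the same length. The 2 BAD windows overlap and hold the same 1 site, which is thus counted in each. The 25 bases around it are given with TGACG or its complement in capitals, each read along its gene, because the flanks differ between these genes.
PMAIP1, chr18:59899931-59899955, forward strand: agtttccctaCGTCAccagggaagt
BAD, chr11:64284744-64284768, reverse strand: cctacccgagTGACGttccgagagg
BAX, chr19:48954731-48954755, forward strand: gacagtcacgTGACGggaccaaacc
BCL2L1, chr20:31724150-31724174, reverse strand: atatataaacTGACGgacggatgaa
Of these 4 genes with the CRE core, PMAIP1 alone passed the test at 30 mg/kg in edgeR, and BCL2L1, whose other start lacks the core, had a fitted level below vehicle. The C/EBP-ATF element core TGATGNAA was found in 0 of the 14 windows and in 3.14% of all windows, and the forkhead core TGTTTAC in 1, that of BCL2L11, and in 2.98% of all. The GC box GGGCGG was found in 10 of the 14 windows and in 42.6% of all. Those windows belong to 6 of the 8 members, and sites shared by overlapping windows of BID and BAD are counted more than once. Each motif was counted separately, so letters may be shared between motifs, and a match describes the window and says nothing of binding.

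BBC3 encodes PUMA, a BH3-only protein that can bind all the main protectors. In vehicle its lowest, median and highest levels were 16.4, 21.0 and 24.7 CPM (mean 20.6 ± 3.45, n = 6). The values at 10 mg/kg were 21.5, 23.4 and 64.2 CPM (mean 31.1 ± 16.7), and at 30 mg/kg 18.7, 28.1 and 33.4 CPM (mean 26.1 ± 6.10). The highest 10 mg/kg value was in replicate 2, where it rested on 30 counts, and both dose groups overlapped vehicle. The fold was 1.32 at 10 mg/kg (0.976 to 1.78; adjusted p = 0.577) and 1.26 at 30 mg/kg (0.944 to 1.68; adjusted p = 0.792) in edgeR, so neither passed. Without 10 mg/kg replicate 2 the log2 fold at that dose went from 0.40 to 0.25. BBC3 overlaps MIR3190 and MIR3191 in the RefSeq annotation of GRCh38.p14, and whether counting used strand is not given in the sources used here.

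BCL2L11 encodes BIM, a BH3-only protein restrained by survival signalling and induced by forkhead factors in many cells. Its vehicle levels had a lowest, median and highest value of 56.3, 58.6 and 68.4 CPM. Treated tumours had 51.3, 71.1 and 78.1 CPM at 10 mg/kg, and at 30 mg/kg 60.0, 71.4 and 83.5 CPM. The medians of the treated groups lay above the highest vehicle library, but the ranges overlapped. The fold was 1.15 at 10 mg/kg (0.986 to 1.34; adjusted p = 0.580) and 1.18 at 30 mg/kg (1.02 to 1.37; adjusted p = 0.543) in edgeR.

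BIK encodes a BH3-only protein that sits largely at the endoplasmic reticulum. Its lowest, median and highest levels were 46.1, 50.6 and 66.6 CPM in vehicle, 39.6, 49.6 and 62.8 CPM at 10 mg/kg, and 48.3, 63.6 and 100.5 CPM at 30 mg/kg. Replicates 5 and 6 of the 30 mg/kg group were high, at 100.5 and 84.6 CPM, while the other 4 libraries lay within the vehicle range. The ratio of 30 mg/kg to vehicle was 1.28 (1.02 to 1.61; adjusted p = 0.543, edgeR), and that of 30 to 10 mg/kg was 1.34 (1.06 to 1.69; adjusted p = 0.969). At 10 mg/kg the ratio to vehicle was 0.958 (0.758 to 1.21).

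The remaining BH3-only members, BID and BAD, did not pass the test at either dose. BID is cleaved by caspase 8 to link death receptors to mitochondria, and BAD is inactivated by phosphorylation under growth factor signalling. BID was at 28.2 ± 4.85, 32.1 ± 7.01 and 29.2 ± 5.38 CPM in vehicle, 10 and 30 mg/kg (n = 6 each), with folds of 1.09 (0.871 to 1.35) and 1.04 (0.840 to 1.29). Its groups overlapped, and the 30 mg/kg group held 1 low library at 18.4 CPM. BAD was at 21.6 ± 2.69, 19.8 ± 9.92 and 26.1 ± 4.31 CPM, with folds of 1.02 (0.764 to 1.35) and 1.21 (0.919 to 1.59). The wide spread of BAD at 10 mg/kg came with replicate 2, in which a single count gave 2.14 CPM. BID overlaps MIR3198-1 and BAD overlaps GPR137 in the same annotation.

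The effectors BAX and BAK1 form the pores themselves. BAX ran from 13.9 to 25.6 CPM with a median of 18.02 in vehicle, from 15.2 to 36.4 with a median of 21.4 at 10 mg/kg, and from 14.6 to 34.5 with a median of 23.1 at 30 mg/kg. The groups overlapped widely, and the folds of 1.08 (0.767 to 1.51) and 1.23 (0.890 to 1.70) did not pass in edgeR (adjusted p = 0.921 and 0.880). BAK1 had means of 17.2 ± 1.89, 20.5 ± 4.82 and 18.4 ± 6.20 CPM (n = 6 each) and folds of 1.16 (0.876 to 1.55) and 1.06 (0.803 to 1.40). HCT116 is known to carry a BAX frameshift on one allele, and gene-level counts do not separate alleles.

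Neither protector passed the test. MCL1, a short-lived protein degraded when NOXA is bound to it, had lowest, median and highest levels of 127.0, 153.7 and 164.0 CPM in vehicle, 136.3, 158.0 and 175.4 at 10 mg/kg, and 125.2, 167.5 and 175.9 at 30 mg/kg. Its folds were 1.04 (0.893 to 1.204; adjusted p = 0.909) and 1.07 (0.920 to 1.23; adjusted p = 0.943) in edgeR, intervals that leave out a change as large as that of PMAIP1 at 30 mg/kg. BCL2L1 ran from 138.3 to 197.3 CPM with a median of 148.9 in vehicle, from 97.6 to 165.3 with a median of 128.8 at 10 mg/kg, and from 103.4 to 167.1 with a median of 124.9 at 30 mg/kg. At each dose 4 of 6 libraries lay below the vehicle minimum but the ranges overlapped, and the folds were 0.845 (0.693 to 1.03; adjusted p = 0.606) and 0.844 (0.695 to 1.03; adjusted p = 0.735) in edgeR. The ratio between the doses was 1.00 (0.820 to 1.22). The BCL2L1 count can include reads of the overlapping BCL2L1-AS1 and LOC124904883.

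At 10 mg/kg, 0 of the 10 members passed in edgeR, 1 had an unadjusted p under 0.05 (9.5% of all genes did), and DESeq2 called 1, which was PMAIP1. Over all 14074 genes tested, 0.469% were called at that dose (0.419% as higher). At 30 mg/kg, 1 of the 10 passed, where 0.618% of all genes were called (0.568% as higher), and 3 members (PMAIP1, BCL2L11 and BIK) had an unadjusted p under 0.05 (7.9% of all genes did). Between the doses 0 members passed in edgeR or DESeq2, with 1 member (BIK) at an unadjusted p under 0.05, as had 3.52% of all genes, and 0% of all genes called. Groups without overlap with vehicle were seen in 1 of 10 members at each dose, in both cases PMAIP1, against 1.16% of all genes at 10 mg/kg (0.689% higher) and 1.73% at 30 mg/kg (1.25% higher). Both doses were read against the same vehicle libraries. The median log2 fold of the members was 0.11 at 10 mg/kg and 0.26 at 30 mg/kg, where that of all genes was -0.0064 and -0.0011. The fitted direction was above vehicle for 8 of 10 and 9 of 10 members, and for 48.8% and 49.8% of all genes. The 8 at 10 mg/kg include BAD and MCL1, with log2 folds of 0.022 and 0.052. On log2(TPM + 1) the 10 mg/kg folds of BAD, BCL2L11 and MCL1 were below vehicle, at -0.51, -0.073 and -0.039. The count thus depends on the scale, and the members are not independent replicates. The members were chosen with earlier results of these data known, so none of these counts and shares tests the family.

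**Figure D2:**
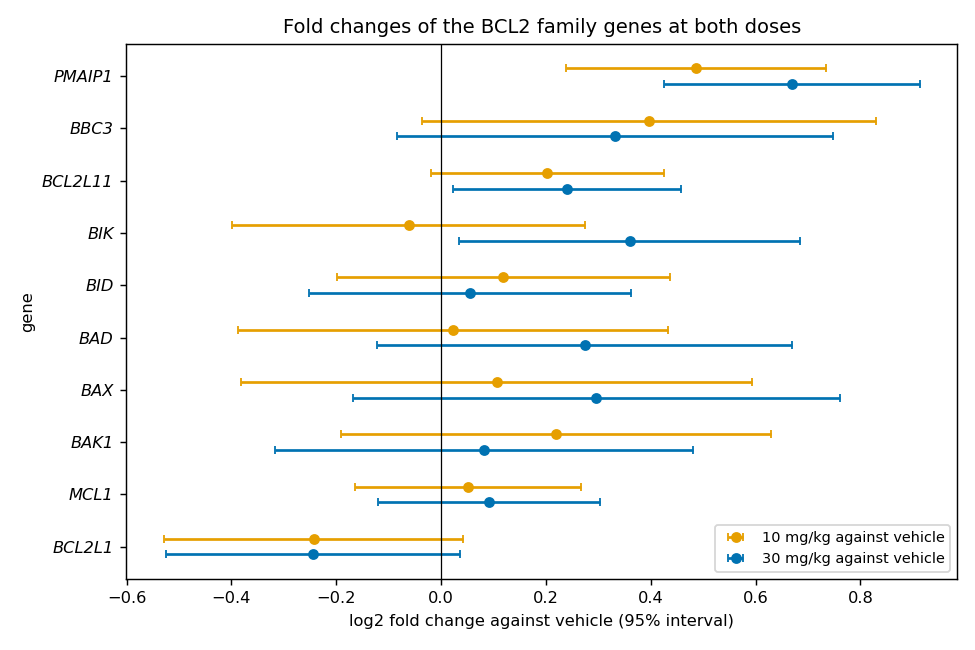
Fitted log2 fold change against vehicle (horizontal axis) of each of the 10 members at 10 and 30 mg/kg, with 95% intervals computed from the edgeR test statistics. The interval of PMAIP1 lies above 0 at both doses and passed the adjusted threshold at 30 mg/kg, and BCL2L1 is the member with negative estimates at both doses.

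Levels can be compared between genes only per transcript length, for which the deposited TPM values (abundances scaled for length) were used. On that scale the vehicle order was BCL2L1 at 124 ± 13.7 TPM, BIK at 119 ± 14.9, PMAIP1 at 91.5 ± 4.25, MCL1 at 73.7 ± 8.14, BAX at 53.1 ± 15.6, BAD at 46.3 ± 6.28, BCL2L11 at 34.1 ± 6.99, BID at 26.2 ± 5.24, BBC3 at 23.7 ± 3.90 and BAK1 at 15.9 ± 1.59 (SD, n = 6). Only BIK over PMAIP1, PMAIP1 over MCL1 and BBC3 over BAK1 were neighbours in that order whose libraries did not overlap. At 10 mg/kg PMAIP1 had the highest mean at 121.6 ± 30.3 TPM, and at 30 mg/kg BIK at 149.8 ± 37.5 TPM and PMAIP1 at 143 ± 26.8 TPM led, with all neighbours overlapping at both doses. In 10 mg/kg replicate 2 PMAIP1 was at 70.9 TPM although its CPM was 104.8, so in TPM the 10 mg/kg range of PMAIP1 overlapped vehicle.

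**Figure D3:**
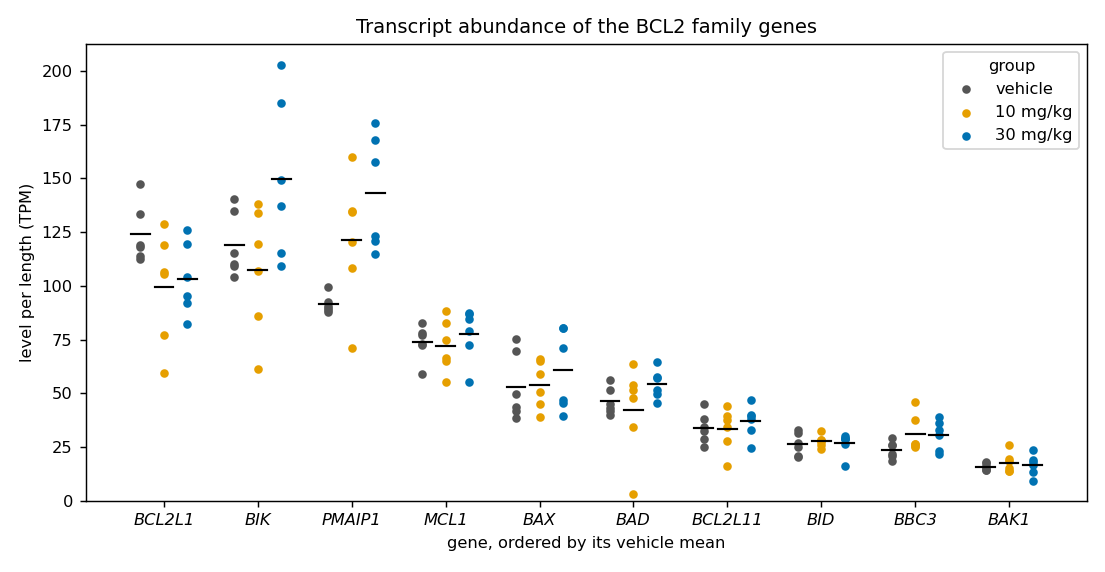
Level of each member per length in TPM (vertical axis) by gene (horizontal axis) and group (colour), with each of the 6 libraries as a point and a line at the mean. BCL2L1, BIK, PMAIP1 and MCL1 lie highest, and BAK1 is lowest with 15.9 ± 1.59 TPM in vehicle.

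The ratio of PMAIP1 to MCL1, a binding pair, and to BCL2L1 is independent of library scaling. In TPM, PMAIP1 over MCL1 was 1.26 ± 0.220 in vehicle (1.06 to 1.69), 1.67 ± 0.245 at 10 mg/kg (1.29 to 2.03) and 1.91 ± 0.589 at 30 mg/kg (1.41 to 2.84), with n = 6 each. That is 1.32 and 1.52 times vehicle, and the groups overlapped because vehicle replicate 3 reached 1.69. PMAIP1 over BCL2L1 was 0.742 ± 0.0595 in vehicle (0.664 to 0.812), 1.25 ± 0.308 at 10 mg/kg (0.910 to 1.74) and 1.40 ± 0.238 at 30 mg/kg (1.19 to 1.85). Its treated ranges did not overlap vehicle. In TPM it was above 1 in 0 of 6 vehicle libraries, in 5 of 6 at 10 mg/kg and in 6 of 6 at 30 mg/kg. The value 1 depends on the scaling for length. For PMAIP1 over MCL1, TPM gave 6 of 6 above 1 in each group, and counts gave 0, 0 and 2 of 6. BCL2L1 itself had fitted levels below vehicle at both doses, and ratios of other pairs were not compared. Ratios of RNA are a description, chosen after PMAIP1 had been seen to differ, and have no test.

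**Figure D4:**
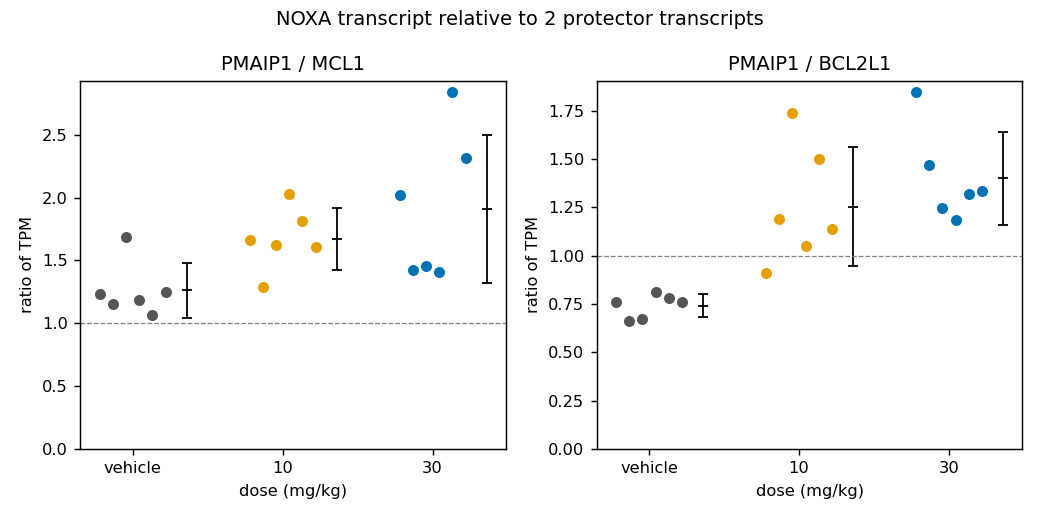
Ratio of PMAIP1 to MCL1 and of PMAIP1 to BCL2L1 in TPM (vertical axes) in each library by group, with the mean ± SD beside the points and a dashed line at 1. The ratio to BCL2L1 is 0.664 to 0.812 in vehicle and 0.910 or more in every treated library.

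Across the 18 libraries the members did not move as a block. Of 45 pairs, 31 had a positive and 14 a negative Spearman rho of log2 CPM, from -0.80 to 0.51. The lowest was between the protectors MCL1 and BCL2L1, chosen for mention after the values were seen, with Pearson r = -0.79 and rho = -0.80. Without the 2 libraries farthest from the median of MCL1, r was -0.71, and within groups over 17 libraries rho was -0.75. These points share the scaling of each library, so the values are a description.

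The genes whose pattern over 18 libraries was most like PMAIP1, among 12545 genes with a mean of at least 5 CPM, were AREG (rho 0.92), MARS1 (0.89), PRSS12 (0.88), SERPINB6 (0.87) and DSC2 (0.87). AREG encodes the growth factor amphiregulin, MARS1 a methionyl-tRNA synthetase, and DSC2 the desmosomal protein desmocollin. In edgeR, AREG, MARS1 and DSC2 were higher at 30 mg/kg, by log2 folds of 0.56 (adjusted p = 0.00945), 0.48 (0.0202) and 0.57 (0.00212). These genes were picked for their likeness to PMAIP1, which was higher in treated libraries. A rise was therefore partly fixed by the choice, and these values are a description. PRSS12 and SERPINB6 had log2 folds of 0.33 and 0.35 with adjusted p = 0.211 and 0.0898. Without 10 mg/kg replicate 2, 4 of the 5 names were shared and CEBPG took the place of DSC2.

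The deposited mean transcript length of a gene, weighted by estimated isoform abundance, moves when the isoform mix moves. PMAIP1, BIK and BAK1 are modelled with 1 transcript each, of 1936, 953 and 2193 bases. Among the other 7 members 0 passed in any comparison by limma with Benjamini-Hochberg adjustment, where 0% of 6178 genes were called in each comparison and 271, 142 and 272 genes had an unadjusted p under 0.05. BCL2L11, with 18 transcripts, varied most, from 2890 to 4503 bases within the vehicle group. Its ratio to vehicle was 1.10 (0.952 to 1.27) at 10 mg/kg and 1.07 (0.923 to 1.23) at 30 mg/kg. MCL1, whose short form has a proapoptotic role, stayed between 4075 and 4085 bases in all libraries, and BCL2L1, whose long form protects and short form kills, between 2543 and 2559. The files do not pair lengths with transcripts, so no form can be named.

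Of 33 other tested genes of the death machinery, 0 passed at 10 mg/kg and 1 at 30 mg/kg in edgeR, where 0.469% and 0.618% of all genes did. Of 11 further BCL2 family genes 8 passed the filter on low counts (BCL2A1, HRK and BCL2L10 did not), and 0 were called in edgeR or DESeq2 at either dose, with 1 at an unadjusted p under 0.05 at each. The smallest p was that of BCL2L2, the protector BCL-W, with log2 folds of 0.40 (adjusted p = 0.448) and 0.36 (0.573). BOK, an effector-like member, had log2 folds of 0.29 (adjusted p = 0.580) and -0.080 (0.982). The median log2 fold of the list was 0.30 and 0.19.

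Of 15 genes for the apoptosome, caspases and inhibitors of apoptosis, 0 passed at 10 mg/kg and 1 at 30 mg/kg, with medians of -0.0018 and 0.10. The gene that passed was BIRC3, encoding the inhibitor cIAP2, which rose from 14.4 ± 2.51 CPM in vehicle to 23.5 ± 5.21 CPM at 30 mg/kg (n = 6 each), 1.64-fold (1.29 to 2.07; adjusted p = 0.0415, edgeR). Its ranges, 10.2 to 17.3 and 15.8 to 29.9 CPM, overlapped, and the call held in 8 of 18 fits that left out 1 library (adjusted p 0.0127 to 0.149). BIRC5, which encodes survivin, is mentioned because its groups did not overlap at 10 mg/kg, as in 1.16% of all genes. It was at 118.7 to 134.0 CPM in vehicle and 89.8 to 105.4 CPM at 10 mg/kg. Its log2 fold of -0.35 did not pass (adjusted p = 0.257, edgeR). BIRC5 overlapped vehicle at 30 mg/kg, with a log2 fold of -0.10 (adjusted p = 0.942). In the death receptor arm 0 of 10 genes passed at either dose in edgeR or DESeq2, with 0 and 1 at an unadjusted p under 0.05. There TNFRSF1A had log2 folds of 0.23 (adjusted p = 0.601) and 0.42 (0.189) at 10 and 30 mg/kg, and TNFRSF10A 0.26 (0.606) and 0.29 (0.650). Every 30 mg/kg library lay above every vehicle library in TNFRSF1A, as in 1.25% of all genes.

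PMAIP1, BBC3 and BCL2L11 are known targets of several transcription factors, and the arms of ATF4 and FOXO, 2 among these, were looked at as lists chosen with earlier results of these data known. The ATF4 arm is known for the amino acid and unfolded protein responses. In it 3 of 12 genes rose at 10 mg/kg and 4 of 12 at 30 mg/kg, where 0.469% and 0.618% of all genes were called. Because the list was chosen with results known, these counts do not test the arm. CHAC1, which degrades glutathione, was 2.98-fold and 3.64-fold higher than vehicle, and TRIB3 was 1.65-fold and 1.71-fold higher. CEBPG was 1.40-fold and 1.41-fold higher, and the asparagine synthetase ASNS was 1.80-fold higher at 30 mg/kg. Of these calls, CEBPG and CHAC1 at 10 mg/kg held in 16 and 17 of the 18 fits that left out 1 library, and the others in all 18. ATF4 itself had a log2 fold of 0.60 at 30 mg/kg, short of the threshold (adjusted p = 0.0520, edgeR), and without 10 mg/kg replicate 2 the arm had 6 of 12 genes called at 30 mg/kg, ATF4 and ATF3 among them. The list's median log2 fold was 0.45 and 0.47.

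In the FOXO arm 2 of 8 genes rose at each dose, where 0.469% and 0.618% of all genes were called. The list's median log2 folds were 0.096 and 0.15. FOXO1, FOXO3, FOXO4, PIK3IP1, CCNG2 and IRS2 were not called. Their log2 folds ran from -0.12 (FOXO1) to 0.18 (CCNG2) at 10 mg/kg. At 30 mg/kg they ran from -0.21 (FOXO1) to 0.22 (CCNG2). This list too was chosen with results known, so its counts do not test the arm. TSC22D3, the glucocorticoid-induced leucine zipper, went from 22.2 ± 3.26 CPM in vehicle to 48.7 ± 12.2 and 47.1 ± 7.16 CPM (n = 6 each), 2.30-fold and 2.12-fold. KLF9 rose 1.72-fold and 1.71-fold (adjusted p = 0.0381 and 0.0267, edgeR), calls that held in 7 and 11 of the 18 fits that left out 1 library. Among 7 genes that control the turnover of MCL1 protein, 0 passed at either dose in edgeR or DESeq2, with 1 and 0 at an unadjusted p under 0.05. USP13, an MCL1 deubiquitinase, had log2 folds of -0.21 (adjusted p = 0.492) and -0.019 (0.999) at 10 and 30 mg/kg, and MARCHF5 0.15 (0.736) and 0.15 (0.884).

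**Figure D5:**
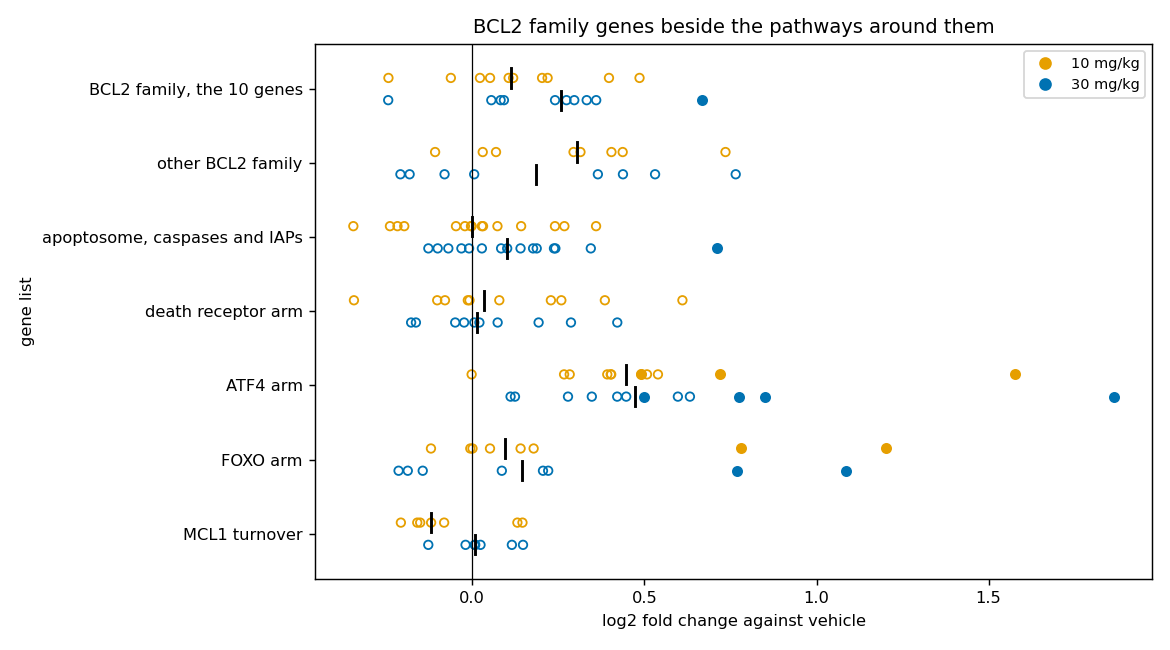
Fitted log2 fold change against vehicle (horizontal axis) of the tested genes in each list (vertical axis) at 10 and 30 mg/kg, with filled points for genes past the adjusted threshold in edgeR and a line at the list's median. The ATF4 list has the highest medians, 0.45 and 0.47, and the FOXO list lies at 0.096 and 0.15.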

How the data were processed

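Total RNA from xenograft tumours was made into libraries from 5 ng with a stranded low-input kit, per the labels' protocols. There were 18 libraries, 6 per group. The submitters' processing notes name STAR 2.4.2a and the builds hg19 and mm10; not given in the sources used here are the quantifier, the annotation and how human and mouse reads were separated. Per the file headers, the deposited tables hold expected counts per gene, TPM values scaled by the authors for length and library, and the authors' mean transcript length, weighted by abundance. Symbols were matched for 25220 of 25343 genes by Entrez ID and 26 by accession, and 97 had none.

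Expected counts were rounded, filtered with filterByExpr, which left 14074 genes, scaled by TMM and fitted over all 18 libraries with the robust quasi-likelihood test of edgeR 4.0.16 in R 4.3.3, with Benjamini-Hochberg adjusted p under 0.05 as threshold. CPM uses the TMM library sizes. Transcript lengths were tested on the log2 scale with limma 3.58.1 for 6178 genes with more than 1 transcript, a mean of at least 20 counts and a varying length. DESeq2 1.42.0 and other settings were alternatives. The scripts were tested on simulated data. The members and lists were chosen with earlier results of these data known. Named are all members, list genes past the threshold, the 2 smallest p of each list with none, and the 5 genes most like PMAIP1 in Spearman rho. BIRC5, ATF3, ATF4 and the uncalled genes of the FOXO list are named in addition. One list and 1 motif that were looked at are not reported here.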

Additional observations from a re-analysis of the deposited data

Results flagged for a closer look

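In 8 of 54 groups of 6 libraries checked, 1 library lay far from the other 5, by Dixon's criterion. Chance gives about 1 in 20 for independent values without ties. Here some flags share a library, and MCL1 lengths were tied at 4085 bases, so the 2 rates cannot be compared. The PMAIP1 level of vehicle replicate 3 was 99.7 CPM where the others were 81.1 to 87.5, and its PMAIP1 to MCL1 ratio was 1.69 where the others were 1.06 to 1.25. BBC3 was at 64.2 CPM in 10 mg/kg replicate 2 and at 21.5 to 32.1 CPM in the rest of that group. BID was at 18.4 CPM in 1 library at 30 mg/kg and at 30.1 to 33.0 CPM in the others. The remaining 4 were mean transcript lengths. At 10 mg/kg the shortest BID length was 2069 bases against 2177 to 2214, and the shortest BAX length 767 bases against 837 to 842, both in replicate 2, the shallow library, where they rested on 21 and 17 counts. At 30 mg/kg the shortest MCL1 length was 4075 bases against 4085 in the others, and the shortest BCL2L1 length 2550 bases against 2557 to 2559. Their causes were not tested.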

How the results depend on the processing

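Over 30 alternatives of each of 30 member results, 848 of 900 kept their direction and side of the threshold. PMAIP1 was the only member called under any alternative at either dose, and the count of members called at 10 mg/kg went from 0 to 1 with DESeq2, without 10 mg/kg replicate 2, without 30 mg/kg replicate 5 (0 to 1 over all fits leaving out 1 library) and, in an alternative added after seeing the data, without both (1). At 30 mg/kg it went from 1 to 0 with limma on log2(TPM + 1) or log2(TPM + 0.1). The genes called at 10 mg/kg, 66, were 32 with no filter, 158 with DESeq2, 12 and 11 on log2(TPM + 1) and log2(TPM + 0.1), 36 with the compared groups alone and 135 in that added alternative. Leaving out 1 library gave 31 (vehicle replicate 5) to 121 (10 mg/kg replicate 2), with 42 and 40 without vehicle replicates 1 and 2. At 30 mg/kg, 87 became 57 with no filter, 179 with DESeq2, 23 and 24 on TPM, 191 with the compared groups alone, 61 to 182 without 1 library (182 without 10 mg/kg replicate 2), and 188 and 212 in the 2 added alternatives, which left out 10 mg/kg libraries 2 and 4, or 10 mg/kg library 2 and 30 mg/kg library 5. The cause was not tested.

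The groups share replicate numbers, but same-numbered libraries did not deviate together (correlations -0.224 to 0.138 for 10 mg/kg and vehicle, -0.182 to 0.226 for 30 mg/kg and vehicle, with 0 and 2 of 6 libraries correlating best with their own number). With the replicate block, 24 and 60 genes were called in place of 66 and 87, 0 members passed at 10 mg/kg, and PMAIP1 passed at 30 mg/kg (adjusted p = 0.0229, edgeR). BAD at 10 mg/kg had a log2 fold of -0.028 with the block, and BCL2L1 between the doses one of 0.0021.

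A total of 46 alternatives turned the sign of 13 member results, none of them called (lowest adjusted p 0.615). Log2 folds at 10 mg/kg against vehicle on log2(TPM + 1) and log2(TPM + 0.1) were -0.51 and -0.57 for BAD, -0.073 and -0.077 for BCL2L11, and -0.039 and -0.040 for MCL1. With no filter they were -0.023 for BAD and -0.018 for MCL1, and with limma-voom -0.012 for BAD. BAX was -0.068 without libraries 2 and 4. BAK1 at 30 mg/kg was -0.0023 with limma-voom and -0.070 without 10 mg/kg library 2 and 30 mg/kg library 5. Between the doses BBC3 was 0.0019 with limma-voom and 0.068 and 0.077 in the 2 added alternatives, BCL2L11 -0.038 and BAK1 0.034 without 10 mg/kg libraries 2 and 4, and MCL1 -0.0056 with library totals alone. BCL2L1 between the doses was 0.052 with no filter, 0.082 and 0.083 on TPM, and 0.061 without 10 mg/kg libraries 2 and 4. Leaving out 1 library gave, at 10 mg/kg, -0.13 to 0.024 for BIK and -0.089 to 0.13 for BAD; at 30 mg/kg, -0.0036 to 0.16 for BID and -0.066 to 0.21 for BAK1; and between the doses -0.15 to 0.086 for BBC3, -0.011 to 0.074 for BCL2L11, -0.14 to 0.029 for BID, -0.0027 to 0.092 for MCL1 and -0.094 to 0.069 for BCL2L1. The depth of 10 mg/kg replicate 2, 433989 counts, limits every 10 mg/kg value of a member with few counts.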
